A study of Arabidopsis thaliana with 6 samples.

Results

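The WRKY transcription factors of Arabidopsis thaliana were followed in root tips kept on salt. The 56 loci were taken from a list of WRKY genes that was not checked to hold the whole family. In counts, sums, medians and ranks below, the family and its groups mean these 56 loci. The isoforms of each locus were summed, which gave 56 of the 27655 loci in the table and 98 of its 48359 isoforms. Root tips came from wild-type seedlings (3 samples) and from seedlings of the mutant sos2-2 (3 samples). Seedlings of either genotype were 6 days old when placed in liquid medium with 100 mM NaCl for 12 hours, so every sample was on salt and no unsalted group was analysed here. The kinase SOS2 belongs to the Salt Overly Sensitive pathway, which moves sodium out of root cells. The design text of the series also names gl1, a mutation known for plants without leaf hairs, but the labels do not say which samples, if any, carry it. The labels do not give the lesion in sos2-2 either.

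WRKY factors are plant regulators named after the amino acids at the start of a conserved DNA-binding domain, which is closed by a zinc finger. They bind the W box, a short DNA element with the core TTGAC, and many WRKY genes carry W boxes of their own. Members of group I have a pair of WRKY domains, those of group II have a single domain with a C2H2 zinc finger and are divided into IIa to IIe, and those of group III have a C2HC finger. The family is best known for the response to pathogens, acting downstream of MAP kinases and of salicylic acid, and several members also act in senescence, in phosphate supply and in the response to salt and heat.

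The group labels were checked against the coding sequences of the RefSeq TAIR10.1 annotation, in which all 56 loci had the listed name. All 10 group I loci coded for a pair of WRKY signatures and the other 46 for a single signature, 66 signatures in all. The C2HC finger was found in 8 of 8 group III loci and the C2H2 finger in all group I and II loci other than WRKY36, where no finger was found. The signature is coded by 21 bases. They are shown for WRKY25 and WRKY33, the members with the highest levels in sos2-2, for WRKY30, the member with the largest log2 difference, and for the pair that departs from the common form, with the sixth codon in capitals:
WRKY25, first domain: tggagaaaatacggtCAGaaa
WRKY25, second domain: tggaggaaatatggtCAAaaa
WRKY33, first domain: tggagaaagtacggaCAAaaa
WRKY33, second domain: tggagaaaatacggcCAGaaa
WRKY30: tggagaaagtacggcCAGaag
WRKY50: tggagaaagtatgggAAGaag
WRKY51: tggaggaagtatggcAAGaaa
The sixth codon coded for lysine in 2 of the 66 signatures, those of WRKY50 and WRKY51 (AAG), and for glutamine in the others shown (CAA or CAG).

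The region just before the gene start is shown for 5 loci, as 250 bases of TAIR10.1 read 5′ to 3′ on the strand of the gene. W boxes, searched as TTGACC or TTGACT on both strands (GGTCAA or AGTCAA on the other strand), are in capitals. The loci were chosen after their values were seen. WRKY33 (AT2G38470, gene at chr2:16108235-16110766 with 5 exons) and WRKY30 (AT5G24110, chr5:8153115-8154710, 3 exons) were among the members with the largest differences and held more than a single W box, and WRKY29 (AT4G23550, chr4:12291632-12293367, 3 exons) held a pair close together. WRKY48 (AT5G49520, chr5:20090648-20093346, 3 exons) was much higher in sos2-2 with no W box in this window, and WRKY43 (AT2G46130, chr2:18957212-18957925, 2 exons) was lower in sos2-2:
WRKY33, chr2:16107985-16108234, plus strand: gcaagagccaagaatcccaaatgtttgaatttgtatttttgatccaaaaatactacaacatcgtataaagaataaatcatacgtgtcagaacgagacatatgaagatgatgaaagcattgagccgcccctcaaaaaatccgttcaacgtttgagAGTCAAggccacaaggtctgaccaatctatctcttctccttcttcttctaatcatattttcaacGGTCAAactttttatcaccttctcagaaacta
WRKY30, chr5:8154711-8154960, minus strand: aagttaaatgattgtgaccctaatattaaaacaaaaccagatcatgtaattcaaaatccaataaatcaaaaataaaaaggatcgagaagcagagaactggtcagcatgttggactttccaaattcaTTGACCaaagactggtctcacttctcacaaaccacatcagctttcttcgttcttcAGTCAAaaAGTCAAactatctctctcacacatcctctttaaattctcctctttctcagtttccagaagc
WRKY29, chr4:12291382-12291631, plus strand: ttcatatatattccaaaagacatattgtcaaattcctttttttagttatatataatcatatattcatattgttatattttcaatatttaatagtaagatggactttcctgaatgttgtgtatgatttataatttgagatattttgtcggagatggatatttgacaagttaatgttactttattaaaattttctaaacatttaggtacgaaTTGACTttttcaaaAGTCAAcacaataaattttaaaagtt
WRKY48, chr5:20090398-20090647, plus strand: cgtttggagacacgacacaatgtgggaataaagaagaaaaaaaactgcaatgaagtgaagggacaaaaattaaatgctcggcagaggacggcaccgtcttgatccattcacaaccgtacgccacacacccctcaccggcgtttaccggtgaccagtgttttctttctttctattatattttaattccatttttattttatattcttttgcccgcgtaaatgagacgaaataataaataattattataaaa
WRKY43, chr2:18956962-18957211, plus strand: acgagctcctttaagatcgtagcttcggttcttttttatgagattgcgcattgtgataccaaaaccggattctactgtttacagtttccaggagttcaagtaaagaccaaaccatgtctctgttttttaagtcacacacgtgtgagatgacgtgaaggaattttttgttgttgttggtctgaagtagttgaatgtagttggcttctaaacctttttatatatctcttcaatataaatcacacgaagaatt
The W boxes of WRKY33 began at positions -96 and -32 from the gene start, those of WRKY30 at -124, -69 and -61, and those of WRKY29 at -40 and -26.

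Values are TPM, the share of a transcript in all transcripts of a library, corrected for transcript length and scaled to the same total in each library, so levels can be set side by side between genes. Sequencing depth is unknown, since TPM does not keep it, and no counting interval is given. Folds are ratios of mean TPM, with 3 samples in each genotype. The log2 differences are sos2-2 minus wild type on log2(TPM + 1), which understates the difference of genes at low levels. A locus was called at a limma adjusted p under 0.05, adjusted over all 19527 loci with a mean of at least 1 TPM. Whether replicates of a genotype were grown as separate cultures is not in the labels, and p-values cover only the spread among these libraries, which could be technical.

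Most of the listed WRKY genes were higher in sos2-2 than in wild type. Of the 56 loci, 53 were tested, of which 42 (79.2%) were called higher in sos2-2, beside 31.3% of all loci tested. Among the 42, WRKY8, WRKY13 and WRKY41 had wild-type means under 1 TPM (0.729, 0.975 and 0.303 TPM). They passed the limit only through their sos2-2 values, and their calls held with no filter on the mean. Only WRKY43 and WRKY16 were called lower (3.77% of the 53), beside 34.1% of all loci, and 9 members were not called. A call with a difference of at least 2-fold was made for 35 members higher in sos2-2, beside 16.3% of all loci, and for 1 lower, beside 16.8%. The median log2 difference over the 53 members was 1.75, against -0.05 over all loci tested. Of the tested members, 44 had non-overlapping groups with sos2-2 higher (35% of all loci tested). For 2 tested members the groups did not overlap with sos2-2 lower (37.1%). In either direction, 65.4% of all loci tested were called, so a call by itself was common in these data.

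**Figure D1:**
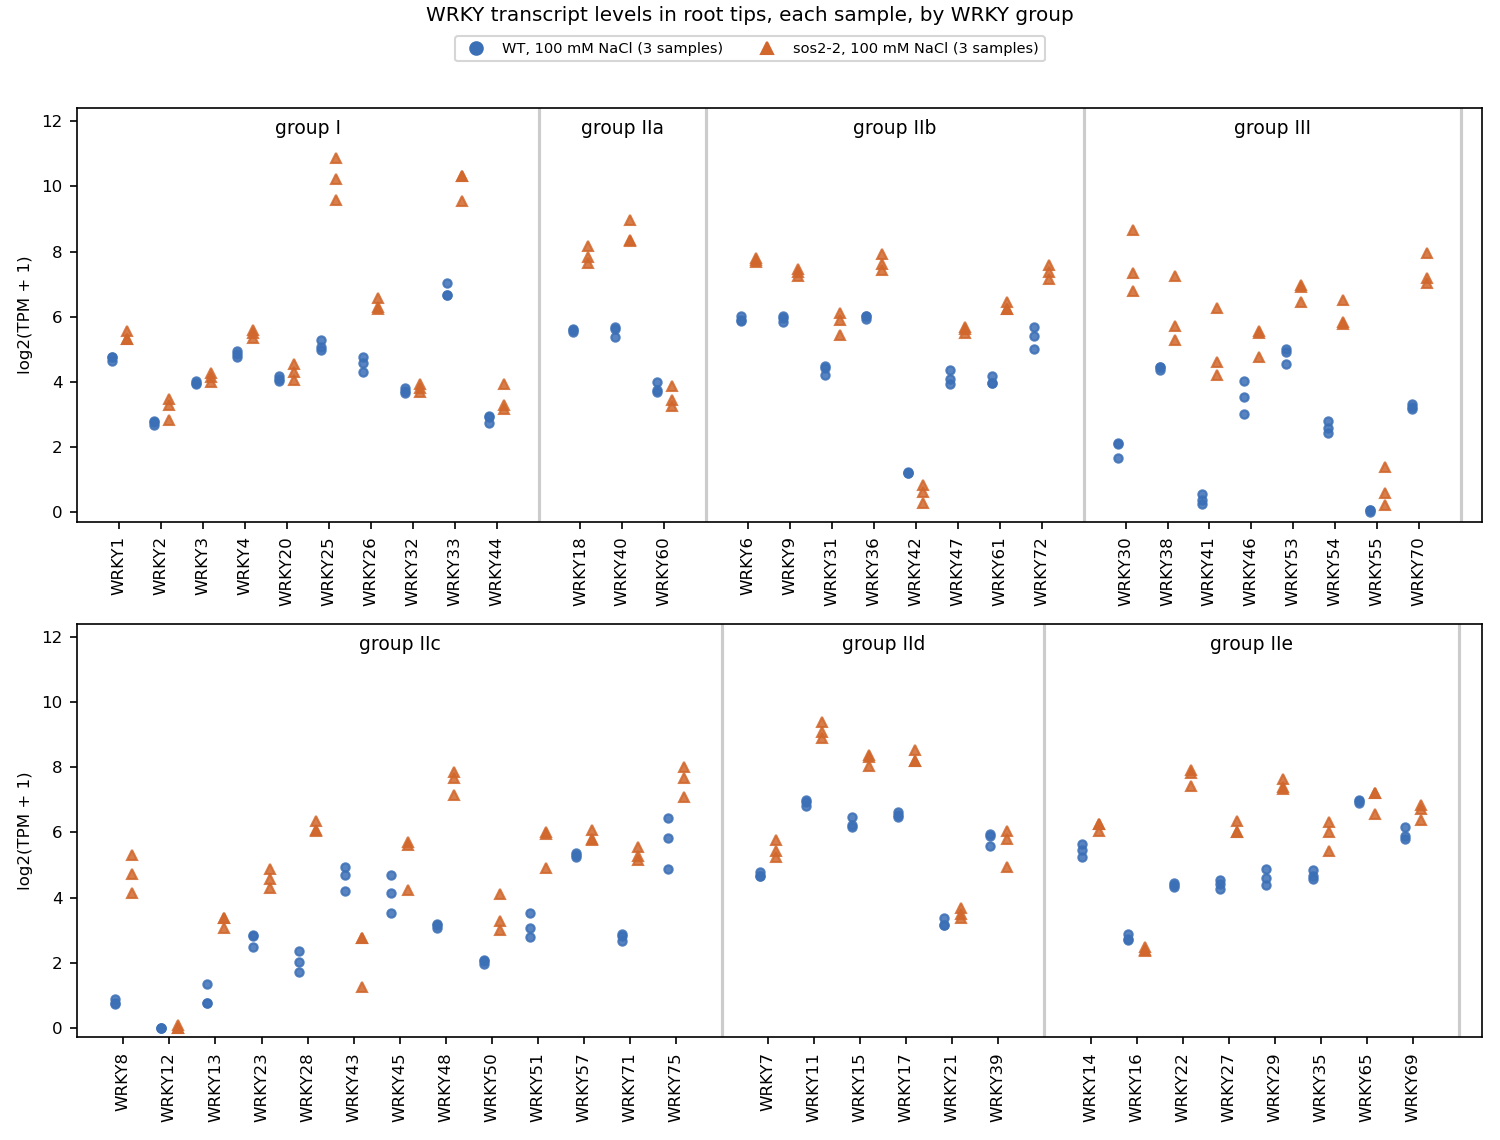
Level of each of the 56 WRKY genes in each sample, as log2(TPM + 1), by WRKY group, with circles for the 3 wild-type samples and triangles for the 3 sos2-2 samples. Triangles lie above circles for most genes, with WRKY43 the clearest case of the opposite.

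The 56 listed loci together took up a larger share of the transcripts in the mutant. The summed level of the 56 loci was 1504, 1743 and 1570 TPM in the wild-type samples and 8869, 6180 and 8184 TPM in the sos2-2 samples. The 2 ranges were far apart, and the ratio of means was 4.82. WRKY25 and WRKY33 together made up 8.97% ± 0.645 of the family sum in wild type (SD, n = 3) and 30.1% ± 5.55 in sos2-2 (SD, n = 3). Without this pair the family sum was 1461 ± 103 TPM in wild type and 5361 ± 603 TPM in sos2-2, a ratio of 3.67 (SD, n = 3).

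**Figure D2:**
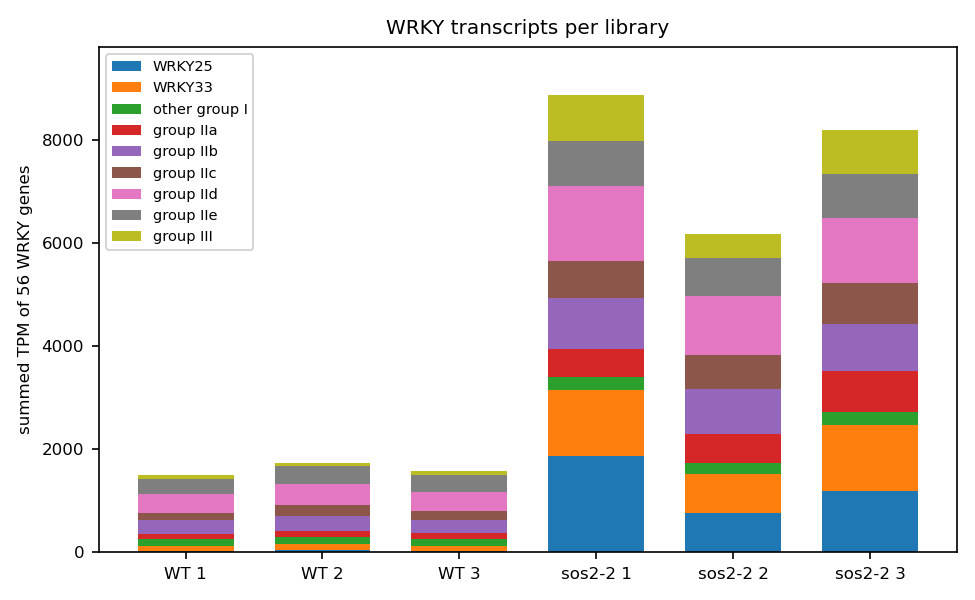
Summed TPM of the 56 WRKY genes in each of the 6 libraries, stacked by WRKY group with WRKY25 and WRKY33 shown apart from the rest of group I. The bars of the 3 wild-type libraries end between 1504 and 1743 TPM and those of the 3 sos2-2 libraries between 6180 and 8869 TPM.

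The order of levels within the family differed between the genotypes. In wild type the highest means belonged to WRKY65 (123 ± 3.09 TPM), WRKY11 (120.0 ± 7.64 TPM) and WRKY33 (111 ± 17.6 TPM; SD, n = 3 each), and the ranges of these 3 genes overlapped. In sos2-2 the highest were WRKY25 (1276 ± 562 TPM) and WRKY33 (1107 ± 309 TPM), whose ranges overlapped, followed by WRKY11 (564 ± 97.6 TPM; SD, n = 3 each). WRKY25 was number 17 of the family in wild type and number 1 in sos2-2. Without sos2-2 sample 1 WRKY33 was number 1 there and WRKY25 number 2. WRKY30 was number 50 in wild type and number 8 in sos2-2, but number 18 without sos2-2 sample 1. WRKY65 was number 1 in wild type and number 18 in sos2-2.

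In group I, 6 of 10 members were called higher in sos2-2 and 4 were not called, with a median log2 difference of 0.61. The share called higher was 60%, beside 31.3% of all loci tested. WRKY33, which controls the synthesis of the antifungal compound camalexin, was at 99.98, 131 and 101 TPM in wild-type tips and at 1280.5, 751 and 1291 TPM in sos2-2. WRKY25 (AT2G30250, chr2:12903208-12905338, minus strand), its close relative known from heat and salt responses, had 30.7, 38.3 and 32.5 TPM in wild type and 1878, 764 and 1187 TPM in sos2-2. The lowest sos2-2 sample of either gene was several times above its highest wild-type sample. WRKY25 was 37.7-fold higher (log2 difference 5.11, SE 0.30, limma adjusted p = 2e-05) and WRKY33 10.01-fold higher (log2 difference 3.28, SE 0.23, limma adjusted p = 3.49e-05). WRKY26, a further relative that acts in heat tolerance, was at 18.5, 26.4 and 22.8 TPM in the wild-type samples, against 73.5, 76.8 and 94.9 TPM in sos2-2. The groups did not overlap, and its mean was 3.62-fold higher (log2 difference 1.82, SE 0.16, limma adjusted p = 7.89e-05).

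The rest of group I differed less. WRKY1 was 1.64-fold and WRKY4 1.56-fold higher in sos2-2 (limma adjusted p = 0.00155 and 0.00195). WRKY44, known as TTG2 for its part in leaf hairs and the seed coat, was at 6.54, 6.77 and 5.64 TPM in wild-type tips and at 14.3, 7.93 and 8.70 TPM in sos2-2. Its call was narrow (limma adjusted p = 0.0437). It was lost when any wild-type sample was left out (limma adjusted p = 0.0813, 0.081 and 0.132) and without sos2-2 sample 1 or sample 3 (limma adjusted p = 0.0656 and 0.0605). WRKY2, WRKY3, WRKY20 and WRKY32 were not called, with log2 differences from 0.08 to 0.44. WRKY2, known for its part in the polarity of the zygote, had groups that did not overlap, at 5.42 to 5.92 TPM in wild type and 6.08 to 10.06 TPM in sos2-2 (limma adjusted p = 0.0683), and was called higher without sos2-2 sample 1 (limma adjusted p = 0.00556).

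**Figure D3:**
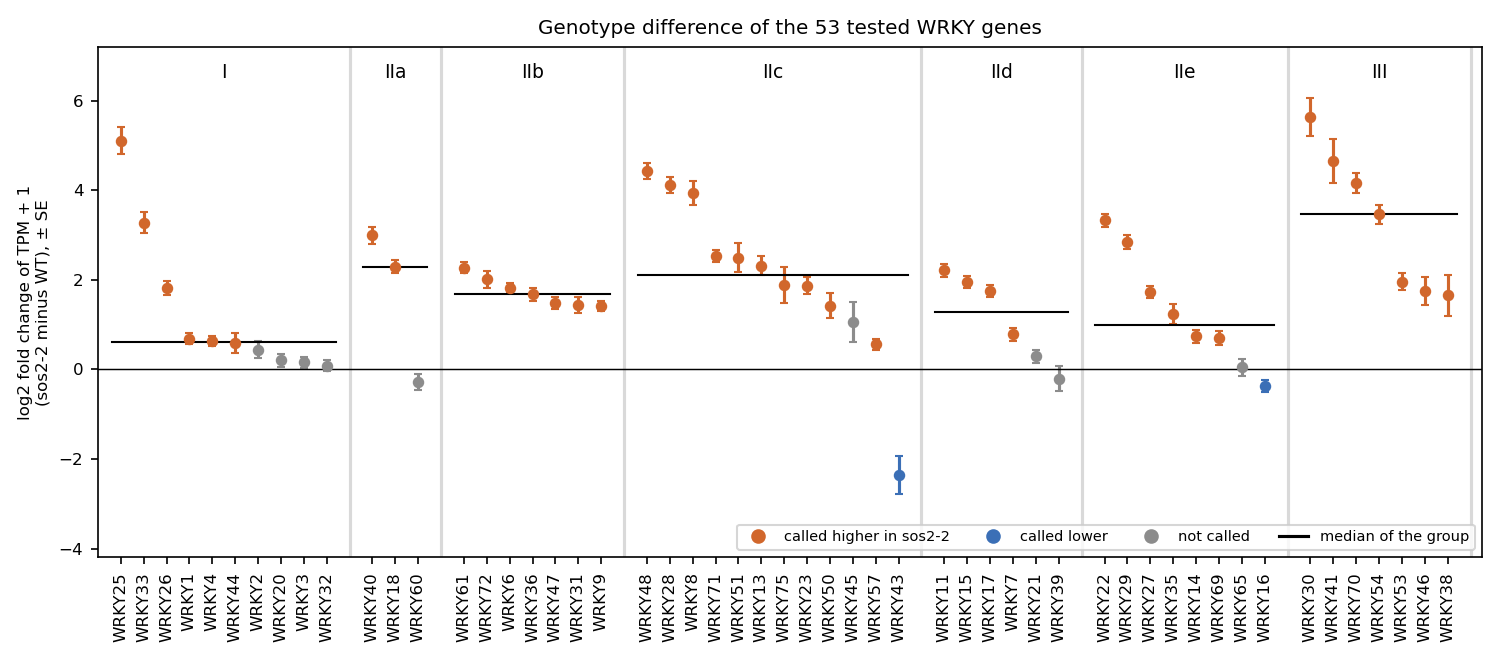
Log2 difference (sos2-2 minus wild type, of TPM + 1) with its standard error for the 53 tested WRKY genes, ordered within each group, with the median of the group as a horizontal line. Group III has the highest median (3.46) and group I the lowest (0.61), although WRKY25 of group I has a difference of 5.11.

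Group IIa holds WRKY18, WRKY40 and WRKY60, which form dimers with each other through leucine zippers and restrain defence and abscisic acid responses. WRKY40 was at 40.7, 50.7 and 47.9 TPM in the wild-type samples, against 328, 319 and 504 TPM in sos2-2. WRKY18 was at 48.4, 47.6 and 44.9 TPM in wild-type tips and at 200.4, 225 and 286 TPM in sos2-2. WRKY60 stood at 14.9, 12.5 and 11.8 TPM in the wild-type samples, against 9.86, 13.7 and 8.61 TPM in sos2-2. The genotypes were well apart for WRKY40 and WRKY18 and overlapped for WRKY60. WRKY40 was 8.26-fold higher (log2 difference 2.99, SE 0.20, limma adjusted p = 2.56e-05) and WRKY18 5.04-fold higher (log2 difference 2.29, SE 0.15, limma adjusted p = 2.43e-05). WRKY60 was not called (log2 difference -0.28, SE 0.18, limma adjusted p = 0.212), but it was called lower without sos2-2 sample 2 (log2 difference -0.46, limma adjusted p = 0.0325).

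In group IIb, all 7 tested members were called higher in sos2-2, beside 31.3% of all loci tested. Their log2 differences lay in a narrow band from 1.41 to 2.27. WRKY61 was at 14.7, 17.0 and 14.6 TPM in wild-type tips and at 87.0, 73.6 and 74.8 TPM in sos2-2. WRKY72, its relative with a part in basal defence, was at 50.5, 41.3 and 30.8 TPM in the wild-type samples, against 189.7, 142 and 165 TPM in sos2-2. WRKY6, a regulator of senescence and of the phosphate exporter PHO1, was at 58.3, 63.9 and 57.2 TPM in wild-type tips and at 203, 222 and 213 TPM in sos2-2. No group overlapped for any of the 3 genes. The folds were 5.08 for WRKY61 (log2 difference 2.27, SE 0.12), 4.05 for WRKY72 (2.01, SE 0.20) and 3.56 for WRKY6 (1.82, SE 0.11), with limma adjusted p of 1.15e-05, 0.000117 and 1.76e-05. WRKY9, WRKY31, WRKY36 and WRKY47 were 2.69-fold, 2.84-fold, 3.27-fold and 2.89-fold higher. WRKY42, which acts with WRKY6 on PHO1, was under the limit of 1 TPM and was not tested. It ran from 1.298 to 1.315 TPM in wild type and from 0.199 to 0.773 TPM in sos2-2, lower and without overlap. Its mean was 1.31 TPM in wild type and 0.902 TPM over all samples, so its low sos2-2 values took it under the limit.

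Group IIc held members at either end of the scale, with 10 of 12 tested members called higher, 1 called lower and 1 not called. That was 83.3% higher and 8.33% lower, beside 31.3% and 34.1% of all loci tested. WRKY48, a regulator of basal defence, was at 7.40, 8.04 and 7.85 TPM in the wild-type samples, against 231, 140.2 and 204 TPM in sos2-2. WRKY28, which activates a gene of salicylic acid synthesis, was at 4.16, 3.05 and 2.27 TPM in wild-type tips and at 80.01, 64.7 and 66.6 TPM in sos2-2. WRKY8, which acts in salt tolerance with the partner protein VQ9, was at 0.845, 0.684 and 0.658 TPM in the wild-type samples, against 38.4, 16.8 and 25.4 TPM in sos2-2. These 3 genes were at low levels in all wild-type samples and at clear levels in all sos2-2 samples. WRKY8 had a wild-type mean of 0.729 TPM and passed the limit of 1 TPM only through sos2-2, so its ratio has a base near 0. WRKY48 was 24.7-fold higher (log2 difference 4.43, SE 0.19), WRKY28 22.3-fold (4.12, SE 0.19) and WRKY8 36.8-fold (3.94, SE 0.28), with limma adjusted p of 5.76e-06, 7.06e-06 and 3.27e-05.

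WRKY43, a small group IIc factor, went the other way. It was at 17.2, 29.5 and 24.9 TPM in wild-type tips and at 1.37, 5.79 and 5.70 TPM in sos2-2, and the groups did not overlap. The wild-type mean was 5.57-fold that of sos2-2 (log2 difference -2.35, SE 0.42, limma adjusted p = 0.00205). Both of its isoforms were called lower as well.

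The other members of group IIc that were called higher ranged from 1.49-fold for WRKY57 to 8.95-fold for WRKY13. WRKY50 and WRKY51, the pair with lysine in the signature, act in the crosstalk of salicylic acid and jasmonate; they were 3.43-fold and 6.43-fold higher (limma adjusted p = 0.00271 and 0.000462). WRKY75, which acts in phosphate starvation and senescence, was at 28.3, 85.3 and 55.98 TPM in the wild-type samples, against 136, 202 and 259 TPM in sos2-2, 3.52-fold higher with a wide spread in wild type (limma adjusted p = 0.00469). WRKY45, an activator of the phosphate transporter gene PHT1;1, was at 10.6, 24.8 and 16.6 TPM in wild-type tips and at 17.8, 47.5 and 50.9 TPM in sos2-2, and was not called (limma adjusted p = 0.067); it was called higher without sos2-2 sample 1 (limma adjusted p = 0.00573). WRKY12, a repressor of wall thickening in the pith, was listed at 0 in all 3 wild-type samples and in 2 of 3 sos2-2 samples, with 0.0566 TPM in the remaining library.

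Group IId factors bind calmodulin, and WRKY11 and WRKY17 are negative regulators of basal defence. WRKY11 was at 121, 127 and 112 TPM in the wild-type samples, against 669.9, 478 and 543 TPM in sos2-2. WRKY15, known from the response to oxidative and osmotic stress, was at 70.9, 87.4 and 74.7 TPM in wild-type tips and at 330.4, 262 and 320.2 TPM in sos2-2. WRKY17 was at 87.6, 98.4 and 91.8 TPM in the wild-type samples, against 369, 291 and 294 TPM in sos2-2. All 3 genes were among the most abundant of the family in either genotype, and none of their groups overlapped. They were 4.70-fold (log2 difference 2.21, SE 0.15), 3.92-fold (1.95, SE 0.14) and 3.43-fold (1.76, SE 0.13) higher in that order, with limma adjusted p of 2.63e-05, 3.43e-05 and 4.07e-05. WRKY7 was 1.77-fold higher (limma adjusted p = 0.00236), and WRKY21 and WRKY39 were not called (limma adjusted p = 0.0994 and 0.527).

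In group IIe, 6 of 8 members were called higher, 1 lower and 1 was not called. These counts were 75% higher and 12.5% lower, beside 31.3% and 34.1% of all loci tested. WRKY22 and WRKY29, which act downstream of a MAP kinase cascade that flagellin sets off, were the members with the largest differences. WRKY22 was at 19.8, 20.7 and 19.2 TPM in wild-type tips and at 240.2, 169.7 and 225 TPM in sos2-2. WRKY29 was at 19.8, 28.3 and 23.4 TPM in the wild-type samples, against 199.8, 161 and 166 TPM in sos2-2. WRKY27, which affects the course of bacterial wilt, was at 18.1, 20.3 and 22.1 TPM in wild-type tips and at 79.9, 63.8 and 63.3 TPM in sos2-2. The wild-type levels of the 3 genes were alike, and the sos2-2 levels of WRKY27 lay below those of WRKY22 and WRKY29. The folds were 10.6 for WRKY22 (log2 difference 3.33, SE 0.15), 7.37 for WRKY29 (2.84, SE 0.16) and 3.42 for WRKY27 (1.72, SE 0.14), with limma adjusted p of 7.06e-06, 1.4e-05 and 4.88e-05.

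WRKY65, the most abundant member in wild type, was at 124, 119.6 and 126 TPM there and at 94.3, 148 and 146 TPM in sos2-2, so the genotypes overlapped (log2 difference 0.04, limma adjusted p = 0.842). WRKY35, WRKY14 and WRKY69 were 2.47-fold, 1.67-fold and 1.63-fold higher in sos2-2. WRKY16, in which a WRKY domain is fused to an immune receptor, was at 6.39, 5.60 and 5.49 TPM in the wild-type samples, against 4.09, 4.22 and 4.58 TPM in sos2-2. The groups did not overlap, but the difference was small (log2 difference -0.36, SE 0.14, limma adjusted p = 0.0473). The call was lost when any single sample was left out (limma adjusted p from 0.0731 to 0.154) and with TMM-type scaling (limma adjusted p = 0.0788). It was also lost with a mean of at least 5 TPM, quantile normalization, the replicate block or the most abundant isoform alone. Its tested isoforms, 1 and 4, were not called (limma adjusted p = 0.575 and 0.178).

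Group III had the highest median difference of the groups, with all 7 tested members called higher and a median log2 difference of 3.46. Among all loci tested, 31.3% were called higher. WRKY30, induced by oxidative stress and pathogens, was at 3.38, 3.24 and 2.16 TPM in wild-type tips and at 401, 109.8 and 161 TPM in sos2-2. WRKY41, its relative in the group, was at 0.173, 0.453 and 0.284 TPM in the wild-type samples, against 76.4, 17.3 and 23.4 TPM in sos2-2. WRKY70, a regulator at the meeting point of salicylic acid and jasmonate signals, was at 7.86, 8.27 and 8.97 TPM in wild-type tips and at 145, 129.7 and 246 TPM in sos2-2. No groups overlapped, and for WRKY30 and WRKY41 sos2-2 sample 1 was far above the other two sos2-2 samples. WRKY30 was 76.6-fold higher (log2 difference 5.64, SE 0.43, limma adjusted p = 4.95e-05), and 46.3-fold without sos2-2 sample 1. WRKY41 was 129-fold higher (log2 difference 4.65, SE 0.49, limma adjusted p = 0.000179), and 67.0-fold without sos2-2 sample 1. WRKY41 had a wild-type mean of 0.303 TPM and passed the limit of 1 TPM only through sos2-2, so its ratio has a base near 0. WRKY70 was 20.7-fold higher (log2 difference 4.16, SE 0.23, limma adjusted p = 1.54e-05).

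WRKY54, which shares roles in salicylic acid signals and senescence with WRKY70, was 13.3-fold higher, at 5.03 ± 0.784 TPM in wild type and 67.0 ± 20.7 TPM in sos2-2 (SD, n = 3). The neighbouring locus WRKY55 on chromosome 2 was under the limit and was not tested; it was listed at 0, 0.0443 and 0.0405 TPM in the wild-type samples, against 1.61, 0.149 and 0.492 TPM in sos2-2. WRKY53, a regulator of leaf senescence, was 4.01-fold higher and WRKY46, known from osmotic stress in roots, 3.53-fold higher (limma adjusted p = 0.000101 and 0.00185). WRKY38, a defence regulator, was at 19.5, 21.1 and 21.002 TPM in wild-type tips and at 37.9, 51.0 and 152 TPM in sos2-2. Its ratio was 3.91 with all samples and 2.17 without sos2-2 sample 3 (limma adjusted p = 0.0145 with all samples).

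The samples of sos2-2 were not alike. Among the 42 members called higher, sos2-2 sample 1 was the highest of the 3 for 26 (61.9%) and sample 2 the lowest for 29 (69%). Among all 6115 loci called higher the same shares were 54.7% and 58.3%.

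Single isoforms were tested in the same way. Of the 98 isoforms, 78 were tested, of which 51 were called higher in sos2-2, beside 25.1% of the 27461 isoforms tested in all, and 4 were called lower, beside 25.7%. The 4 were both isoforms of WRKY43, isoform 1 of WRKY60 and isoform 2 of WRKY39. Where a locus has a single isoform, its values repeat those of the locus above. Loci with more than 1 isoform gave 45 tested isoforms, of which 24 were called higher, 4 lower and 17 were not called. Among the 16 loci with at least 2 isoforms tested, no locus had isoforms called in opposite directions. Isoform 1 of WRKY60 was at 10.4, 8.37 and 7.01 TPM in the wild-type samples, against 5.69, 3.46 and 3.07 TPM in sos2-2 (log2 difference -0.94, SE 0.25, limma adjusted p = 0.0176). Isoform 3 of the same gene was at 1.61, 3.72 and 4.52 TPM in wild-type tips and at 4.04, 10.3 and 5.54 TPM in sos2-2 and was not called (log2 difference 0.82, SE 0.39, limma adjusted p = 0.123). The locus sum of WRKY60, which was not called, thus joined an isoform that was lower and an isoform whose groups overlapped.

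At other loci too, some isoforms were called and others were not. WRKY39, a group IId gene known from heat responses, had isoform 2 at 3.33, 3.16 and 5.78 TPM in wild type, while the isoform was listed at 0 in sos2-2 samples 1 and 2 and stood at 1.34 TPM in sample 3 (limma adjusted p = 0.00743). Isoform 2 of WRKY69 was at 19.5, 20.7 and 18.2 TPM in the wild-type samples, against 53.3, 40.1 and 48.1 TPM in sos2-2, a log2 difference of 1.23 (SE 0.14, limma adjusted p = 0.00041). Isoform 1 of WRKY69, the more abundant form, was not called (log2 difference 0.33, SE 0.19, limma adjusted p = 0.193). For WRKY11, isoforms 1 and 2 were higher in sos2-2 by 2.15 and 2.69 on the log2 scale, and isoform 3 was not called (0.67, SE 0.38, limma adjusted p = 0.184). Whether isoforms of a locus differ from each other in their response was not tested.

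**Figure D4:**
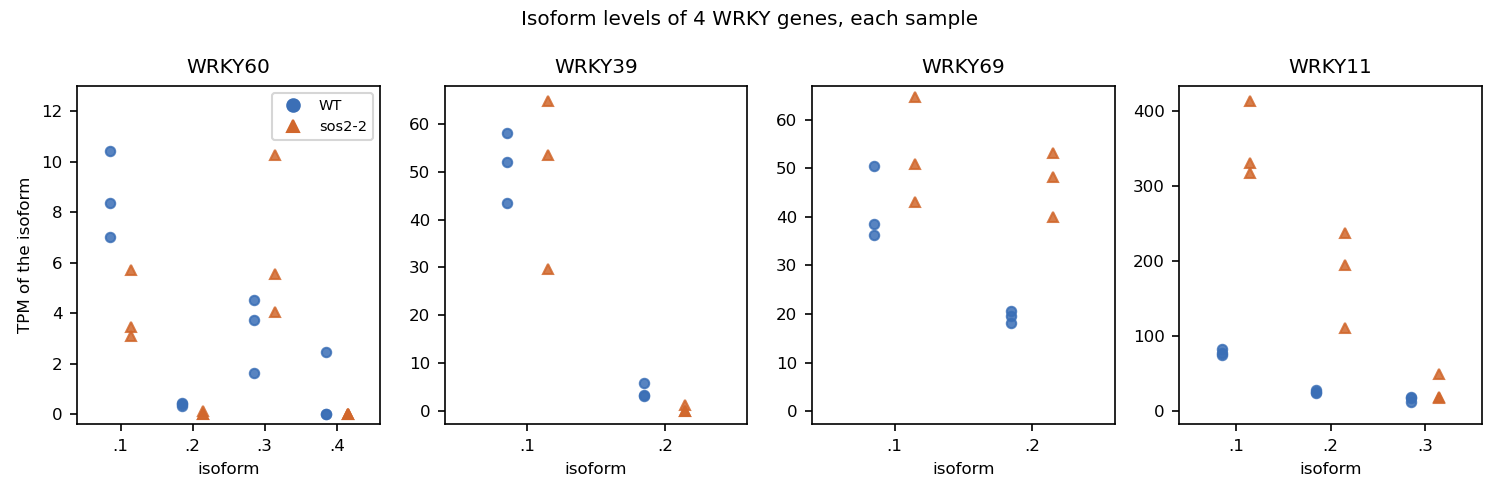
TPM of each isoform of WRKY60, WRKY39, WRKY69 and WRKY11 in each sample, with circles for wild type and triangles for sos2-2. Isoform 1 of WRKY60 and isoform 2 of WRKY39 are lower in sos2-2, and isoform 2 of WRKY69 is higher while isoform 1 overlaps.

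Some loci share sequence with an overlapping gene, and no strand setting of the quantification is known here, so reads of such pairs may not be told apart. A gene on the opposite strand overlapped 11 of the 56 loci. More than 5% of the 31-base words of the transcripts were shared with another locus for 7 members, the most for WRKY41 (39.8%, with AT4G11080), WRKY53 (19.5%, with AT4G23800) and WRKY29 (16.8%, with AT4G23560). The partner AT4G11080 was at 16.5 ± 3.34 TPM in wild type and 7.52 ± 2.49 TPM in sos2-2, and AT4G23800 at 66.0 ± 17.9 and 12.1 ± 2.40 TPM (SD, n = 3), so both were lower in sos2-2 while their WRKY neighbours were higher. AT4G23560 stood under 1 TPM on average in either genotype. WRKY69 shared 15.7% with AT3G58720, which was called higher in sos2-2 as WRKY69 was, at 2.94 TPM on average in wild type and 10.8 TPM in sos2-2 (limma adjusted p = 0.000936). WRKY1 shared 6.54% with AT2G04890, which was called lower, at 7.11 and 1.97 TPM. WRKY61 shared 10.03% with AT1G05447, which has no value here, and WRKY40 shared 5.33%, most with AT3G32090.

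The W box was counted in all promoters for comparison. In the window from 250 bases before to 50 bases after the gene start, 21 of 56 WRKY loci (37.5%) held at least 1 W box, against 33.4% of 19486 tested protein-coding loci. At least 2 were held by 10 WRKY loci (17.9%), against 8.11%. For the members called higher that share was 19%, against 11.4% of all protein-coding loci called higher. Among the 42 members called higher the share with at least 1 was 38.1%, against 38.7% of all protein-coding loci called higher, and it was 35.7% in the other 14 members. In the 1000 bases before the gene start, 46 of 56 WRKY loci (82.1%) held a W box, against 68% of the tested protein-coding loci. These are counts of letters and do not show binding.

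Genes that act with WRKY factors were described from lists of known kinases, partners and targets. The lists were chosen with earlier results of these data known and were not checked to be complete. Of 10 genes of the MAP kinase cascade, 6 were called higher in sos2-2 and 4 were not called, with a median log2 difference of 0.77. The share called higher was 60%, beside 31.3% of all loci tested, whose median log2 difference was -0.05. MKK1, a kinase that acts with MPK4 upstream of WRKY33, was at 3.46, 3.19 and 2.99 TPM in wild-type tips and at 33.4, 30.8 and 26.6 TPM in sos2-2. MKK9, an activator of MPK3 and MPK6, was at 11.9, 14.2 and 14.9 TPM in the wild-type samples, against 136, 99.4 and 186 TPM in sos2-2. Neither pair of groups overlapped, and the folds were 9.42 for MKK1 and 10.3 for MKK9 (limma adjusted p = 7.17e-06 and 3.25e-05). MKK2, MKK5, MPK4 and MPK6 were not called. MPK11, among the 6 called higher, lost its call without wild-type sample 1. Its wild-type mean was 0.578 TPM, so it passed the limit of 1 TPM only through sos2-2.

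VQ proteins bind WRKY factors and change their activity. The list held 11 chosen VQ genes, of which 10 were tested. Of these 10, 9 were called higher and 1, VQ10, was not called, with a median log2 difference of 1.95. The share called higher was 90%, beside 31.3% of all loci tested. SIB1, a partner of WRKY33, was at 1.91, 1.15 and 1.89 TPM in wild-type tips and at 83.1, 43.6 and 60.0 TPM in sos2-2. VQ9, the partner of WRKY8, was at 13.7, 15.2 and 15.1 TPM in the wild-type samples, against 50.1, 53.2 and 51.9 TPM in sos2-2. The groups were far apart for both, and the folds were 37.7 for SIB1 and 3.53 for VQ9 (limma adjusted p = 1.35e-05 and 1.69e-05). VQ12, among the 9, lost its call without wild-type sample 1 or 3 or sos2-2 sample 2 or 3.

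Of 7 tested genes of the camalexin pathway, whose later steps WRKY33 activates, 3 were called higher, 3 lower and 1 was not called. These shares of 42.9% each stand beside 31.3% higher and 34.1% lower among all loci tested. CYP71A13 of the same list was under the limit of 1 TPM and was not tested. Its mean was 0.199 TPM in wild type and 0.216 TPM in sos2-2, and the groups overlapped. CYP79B2, which makes the shared precursor of camalexin and other indole compounds, was at 149, 140.3 and 161 TPM in wild-type tips and at 12.2, 23.5 and 23.1 TPM in sos2-2. GGP1, which acts in the use of glutathione conjugates, was at 170.2, 210.0 and 198 TPM in the wild-type samples, against 72.7, 83.8 and 95.2 TPM in sos2-2. Both genes were lower in every sos2-2 sample, and the wild-type means were 7.66-fold and 2.30-fold those of sos2-2 (limma adjusted p = 6.14e-05 and 0.000284). PAD3, the enzyme of the last step, was 2.67-fold higher in sos2-2. GSTF6, a glutathione transferase and also among the genes called higher, was 1.27-fold higher (limma adjusted p = 0.043), and its call was lost without wild-type sample 1 or 3 or sos2-2 sample 2 or 3, with no filter and with the replicate block. Of 6 phosphate genes tied to WRKY6, WRKY42, WRKY45 and WRKY75, 2 were called higher, 1 lower and 3 were not called. That was 33.3% higher and 16.7% lower, beside 31.3% and 34.1% of all loci tested. PHO1, named above with WRKY6 and WRKY42, was not called. Its ratio was 1.15 and its groups overlapped (limma adjusted p = 0.362). The phosphate transporter gene PHT1;1 was 1.74-fold higher, and PHT1;4 was at 72.6 ± 1.58 TPM in wild type and 33.4 ± 9.65 TPM in sos2-2 (SD, n = 3; limma adjusted p = 0.000674 and 0.00163). The other phosphate gene called higher, PHR1, lost its call when any single sample other than sos2-2 sample 2 was left out.

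**Figure D5:**
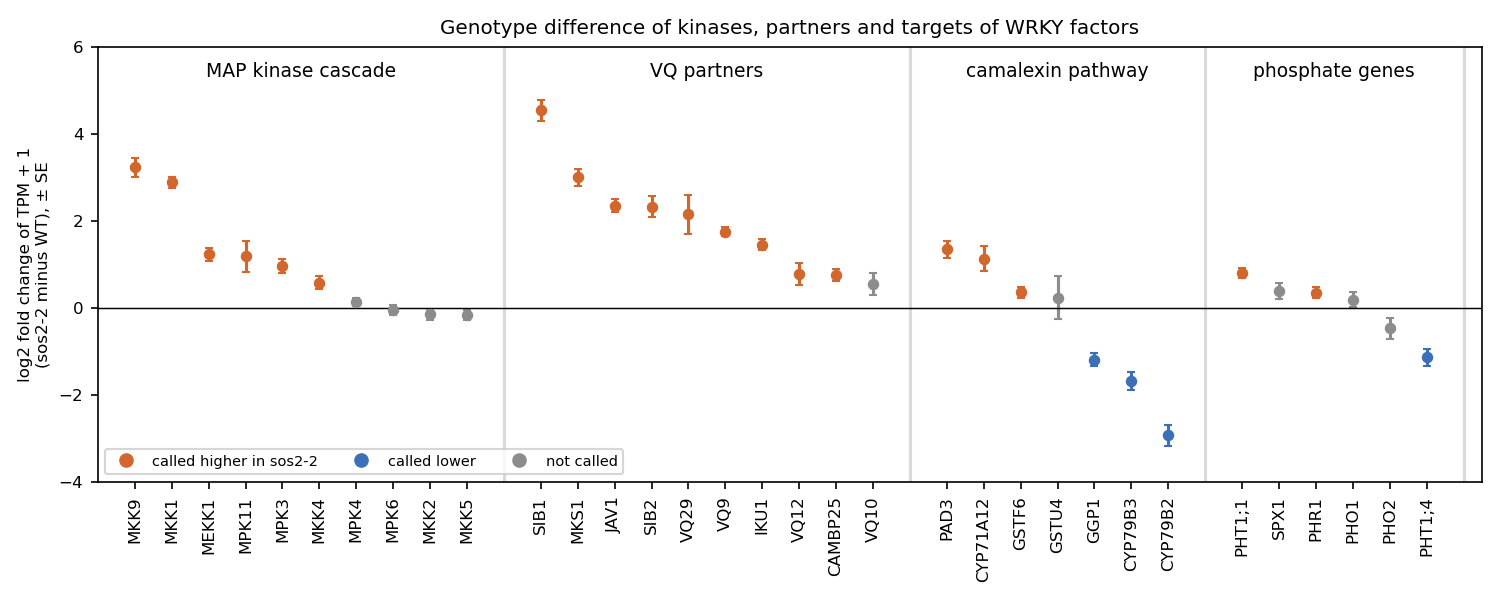
Log2 difference (sos2-2 minus wild type, of TPM + 1) with its standard error for tested genes of the MAP kinase cascade, VQ partners, the camalexin pathway and phosphate supply. Most of the listed VQ genes are called higher, while the camalexin list holds 3 genes called higher and 3 called lower.

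The samples were also checked as root tips. SOS2 itself was at 4.98, 5.81 and 5.44 TPM in wild-type tips and at 22.0, 10.2 and 14.3 TPM in sos2-2; a transcript level does not check a mutation that leaves the transcript in place. Of 28 markers of cell types, 6 were called higher, 12 lower and 10 were not called, and no marker was listed at 0 in every library. The shares were 21.4% higher and 42.9% lower, beside 31.3% and 34.1% of all loci tested. Markers of the stem cell niche (WOX5, PLT1 and PLT2, limma adjusted p = 0.307, 0.983 and 0.241) summed to 14.3 to 18.1 TPM in wild type and 13.5 to 19.8 TPM in sos2-2. Root hair markers (3 of 5 lower, 1 higher) summed to 1321 to 1736 TPM in wild type and 320 to 417 TPM in sos2-2, endodermis markers (2 of 4 lower, 1 higher) to 545 to 695 and 140.2 to 299 TPM, and markers of dividing cells (2 of 2 lower) to 42.0 to 66.7 and 5.77 to 10.6 TPM. Single genes made up most of the first 2 sums in wild type. PRP3 held 1157 of 1524 TPM and CASP1 408 of 625 TPM on average. The root hair marker called higher was RHD6 (1.81-fold) and the endodermis marker called higher was MYB36 (2.29-fold). Phloem markers (2 of 4 higher) summed to 26.4 to 42.2 and 82.0 to 92.2 TPM, and root cap markers (2 of 3 higher) to 29.2 to 33.1 and 42.0 to 43.9 TPM. Xylem markers (2 of 3 lower) summed to 91.6 to 109 and 67.3 to 81.8 TPM, and green shoot markers (3 of 4 lower) to 70.7 to 86.4 and 60.6 to 71.7 TPM. Among these, RBCS1A had overlapping groups (limma adjusted p = 0.0455) and lost its call with no filter and without any wild-type sample or sos2-2 sample 3, and the xylem marker XCP1 lost its call without wild-type sample 2 or 3 or sos2-2 sample 1 or 3. Some of the later sums also leaned on single genes. XCP1 held 96.1 of 102 TPM of the xylem sum in wild type, while ACL5 went from 2.85 TPM in wild type to 0.326 TPM in sos2-2. In the green shoot sum LHCB1.3, not called, went from 39.3 to 47.4 TPM and PSBO2 from 10.5 to 1.86 TPM. BRX of the phloem sum went from 1.74 to 30.4 TPM. The part of the marker shifts in the WRKY results was not tested. In bulk tissue fewer cells of a type and less RNA per cell cannot be told apart.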

How the data were processed

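RNA of root tips was sequenced in 3 wild-type and 3 sos2-2 samples. Per the submitters' processing notes the tools were sleuth 0.30.0 and kallisto 0.46.2 and the build was TAIR10, named without a role or an order. Annotation release, strand setting and any filter: not given in the sources used here. The authors deposited TPM per isoform, a unit inferred from sums of 1000000 in every library. Depth is therefore unknown, and an exact 0 can be a failed estimate. No column of another sample was present (0).

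Isoforms were summed per locus. Loci whose mean over all libraries reached 1 TPM were tested on log2(TPM + 1) with limma 3.58.1 under R 4.3.3, with genotype as the only term, a mean-variance trend and robust moderation, and p-values were adjusted over all tested loci by the Benjamini-Hochberg method. The fit was also run on simulated data in which few loci changed, unlike these data, so that run does not show how the fit performs here. The members, the gene lists and the rule for named genes (per subgroup the 3 largest called rises and 2 largest called falls, all of IIa, the member with the highest mean, and 2 genes per list with the smallest p) were chosen with earlier results of these data known; other genes named, such as PAD3, were chosen after their values were seen. Alternatives changed the filter, the pseudocount (0.1 or 5 TPM), the scaling (TMM-type factors, computed as an unweighted trimmed mean of log ratios because TPM has no depth, or quantile normalization), sample weights, the replicate block, the samples, or used the most abundant isoform alone. Sequences, names and coordinates came from RefSeq TAIR10.1; figures were drawn in Python 3.11.15.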

Additional observations from a re-analysis of the deposited data

How the results depend on the processing

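Of 794 values of members under 15 alternatives, 759 kept their direction and their side of the threshold, and 41 of 44 called members lost no call in any alternative in which they were tested; the others were WRKY16, WRKY44 and WRKY69, the last with the most abundant isoform alone (adjusted p = 0.169). The count of members called higher ran from 40 to 45. The count called lower was 2, 3 with no filter or array weights, and 1 with a mean of at least 5 TPM, TMM-type factors, quantile normalization or the replicate block; leaving out a replicate gave 1 to 2. Member isoforms called lower went from 4 to 2 with a mean of at least 5 TPM and to 6 with no filter. MAP kinase genes called lower went from 0 to 2 with array weights, which were estimated gene by gene. Phosphate genes called higher went from 2 to 1 with no filter, quantile normalization, the replicate block or the most abundant isoform alone, and ran from 1 to 3 without a replicate; those called lower went from 1 to 2 with array weights and ran from 1 to 2 without a replicate. Direction was reversed for members that were not called: WRKY32 (0.08, and -0.059 with array weights), WRKY39 (-0.21, and from -0.43 to 0.12 without a replicate) and WRKY65 (0.04, -0.022 with quantile normalization, and from -0.068 to 0.26 without a replicate). The cause was not tested.

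With the replicate block, 43 members were called higher, 1 lower and 12547 loci in all, against 12780. WRKY45 passed with it (adjusted p = 0.00362). Deviations of same-numbered samples correlated at 0.177, 0.0505 and 0.0576, so the numbers were not taken to pair the samples; not every sample correlated best with its own number, since wild-type replicate 2 and sos2-2 replicate 3 did best with each other (0.182). TMM-type factors turned the split of all calls from 6115 higher and 6665 lower to 6488 higher and 6376 lower, and the median over all loci moved by 0.05 at most on the log2 scale. All loci called ran from 10658 to 12898 without a replicate. The number of samples, 3 in each genotype, and the unknown depth limit what can be said of members near 1 TPM.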
